A study of Mus musculus with 3 samples.

Results

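Genes that copy DNA and drive cell division were read in 3 flow-sorted kinds of dendritic cell (DC) from the mouse spleen, cells that present antigen to T cells. The set holds 51 genes chosen by name, grouped by their role in the cell cycle: 19 of DNA replication (S phase), 21 of mitosis, and 11 of the G1 phase with the inhibitors of cyclin-dependent kinases. Of these, 49 were read, of 19938 genes in all, through 52 probe sets whose annotation names a single gene. Ccnb1 has no probe set under its name in the annotation used, and the probe set of Cdkn1a carries the name of another gene as well, so neither was analysed here.

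Each population was measured on 1 Affymetrix Mouse Gene ST array, which reads a transcript with many short probes. The values are log2 expression levels. The control groups were Esam(hi) GFP(lo) and Esam(lo) GFP(hi) cells of Cre-negative RBPJflox/flox littermates. The RBPJ-null group was Esam(lo) GFP(hi) cells of RBPJflox/flox CD11c-Cre+ mice, in which Cre acts in cells that express CD11c and not only in the sorted subset. All mice carried the Cx3cr1-GFP reporter, all sorted cells were CD11c(hi) CD11b+, and each array holds RNA of pooled spleens from 2 to 3 mice whose ages are not given in the labels. Lymphoid and erythroid cells had been depleted on MACS columns before the sort. With 1 array a group there is no spread between replicates, so no test was possible and each difference compares arrays rather than conditions.

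Genes above background numbered 8177 in control Esam(hi), 9560 in control Esam(lo) and 9108 in RBPJ-null cells. Background is the level below which 95% of 1178 receptor genes of smell and pheromone sensing fall on that array, at 7.17, 6.76 and 6.87 in that order. Rbpj itself read 9.85, 9.85 and 10.04 on the brighter of its 2 probe sets, and was not lower on the RBPJ-null array. Whether that probe set lies in the deleted exons is not known, and the other probe set is not given here. The label was thus not checked, and that array is called the array labelled RBPJ-null. Esam, the sort marker, read 7.79, 6.57 and 6.12, in the direction of the sort. All 8 classical DC markers read, among them Flt3, Zbtb46, Itgax and H2-Aa, were above background on all 3 arrays.

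A dividing cell licenses its replication origins in G1 by loading the MCM helicase, copies its DNA in S phase, and then condenses and separates its chromosomes in mitosis. Cyclins and their kinases order these steps, E2F factors switch on replication genes, and mitotic genes follow later under the MuvB complex with FOXM1. DCs of the spleen arise from bone marrow precursors, and a part of them divides in the tissue before being replaced. In a bulk sample, fewer cells of a cycling kind and less cell cycle RNA in each cell cannot be told apart.

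The promoters of the gene set differ in sequence between the replication and the mitotic genes. Stretches are shown because the comparisons below are given for the same groups of genes. No motif was set against an expression value. Windows of 300 bases, 250 before to 50 after each RefSeq start (GRCm38.p6), were found for 40 of the 51 genes, 44 windows in all. E2F letters (TTTCGCGC, TTTGGCGC or TTTCCCGC), the CHR letters TTTGAA of mitotic promoters, and CCAAT were searched on both strands. In TTTCGCGCCAAA the E2F letters TTTCGCGC and TTTGGCGC overlap on opposite strands. Capitals below mark these letters or their reverse complements, and each stretch is 80 bases, 5′ to 3′ on the strand of the gene. The first 3 belong to subunits of the MCM helicase, on chr5:138172005-138172084 (minus strand), chr8:75109324-75109403 (plus strand) and chr1:128359768-128359847 (minus strand).

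Mcm7: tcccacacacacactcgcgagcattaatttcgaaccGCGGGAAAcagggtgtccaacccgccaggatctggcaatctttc

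Mcm5: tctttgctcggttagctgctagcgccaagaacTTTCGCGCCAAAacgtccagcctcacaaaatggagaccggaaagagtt

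Mcm6: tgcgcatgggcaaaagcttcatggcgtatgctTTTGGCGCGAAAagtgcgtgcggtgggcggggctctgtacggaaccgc

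The next 4 belong to mitotic genes, on chr10:69352941-69353020 (minus strand), chr11:99024326-99024405 (minus strand), chr19:37376302-37376381 (plus strand) and chr7:135716435-135716514 (minus strand).

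Cdk1: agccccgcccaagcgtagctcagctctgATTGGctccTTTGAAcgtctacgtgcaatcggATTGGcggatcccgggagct

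Top2a: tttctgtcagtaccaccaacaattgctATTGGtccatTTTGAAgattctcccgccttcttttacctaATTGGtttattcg

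Kif11: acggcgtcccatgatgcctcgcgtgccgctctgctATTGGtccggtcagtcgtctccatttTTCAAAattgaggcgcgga

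Mki67: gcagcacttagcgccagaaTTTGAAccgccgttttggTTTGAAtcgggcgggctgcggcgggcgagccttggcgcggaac

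E2F letters lay in 8 of 17 replication windows (47.1%) and in 1 of 16 mitotic windows (6.25%), that of Cdk1, against 1.84% of all 32851 windows. CHR letters lay in 2 of the 17 replication windows (11.8%), those of Mcm2 and Cdc45, and in 12 of the 16 mitotic windows (75%), against 17.9% of all. All 12 of those mitotic windows also held CCAAT, a pair found in 6.95% of all windows. The 11 windows of G1 and inhibitor genes held E2F letters in 2 and CHR letters in 1. The mitotic windows of Bub1, Cenpe, Birc5 and Ccnb1 held no TTTGAA. A match describes the letters and does not show that a factor binds there.

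Set against control Esam(lo) cells, control Esam(hi) cells read lower for most of the set. Of the 49 genes read, 42 were lower on the Esam(hi) array, 3 higher and 4 exactly tied, with a median difference (Esam(hi) minus Esam(lo)) of -0.51. Over all 19938 genes 36.4% were lower and 41.7% higher, and the median difference was 0. The control Esam(hi) array was the lowest of the 3 for those 42 genes, 85.7% of the set, against 34.8% of all genes. These shares over all genes include many below background, and brighter genes in general read lower on Esam(hi). Over all genes with a mean of 8 to 8.5 on the control arrays, the upper quartile of the difference was -0.03. From 8.5 to 9 it was -0.12, so most genes of such levels were lower too. Of all genes 11375 had the same value on at least 2 arrays, so a tie was common here and how the ties arose was not tested.

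**Figure D1:**
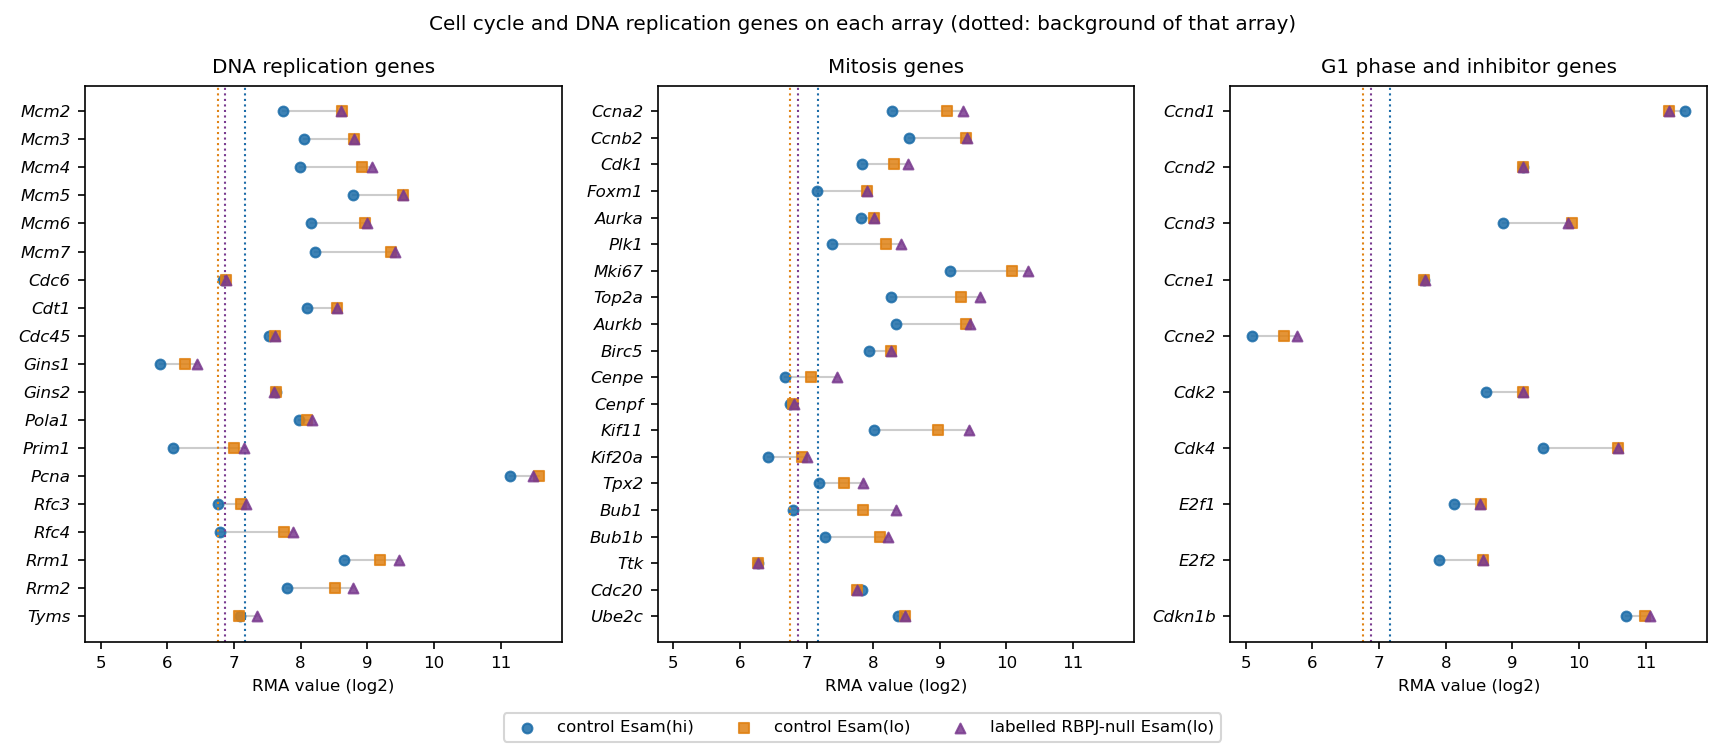
RMA values (log2) of the 49 genes read, 1 row per gene, in panels for DNA replication, mitosis, and G1 phase with the inhibitor. Circles are control Esam(hi), squares control Esam(lo) and triangles the array labelled RBPJ-null, 1 array each; dotted lines mark each array's background (7.17, 6.76 and 6.87). For 42 genes the circle is the lowest of the 3 points.

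All 6 genes of the MCM helicase, the ring that unwinds DNA at the fork, read lower on the control Esam(hi) array, and 1 of them, Mcm7, by at least 2-fold. Mcm7 read 8.21 in control Esam(hi), 9.36 in control Esam(lo) and 9.42 in the cells labelled RBPJ-null, which makes it 2.22-fold lower in Esam(hi) than in control Esam(lo). Mcm4 read 7.99, 8.92 and 9.07, and Mcm2 read 7.74, 8.62 and 8.61, in the same order of arrays. The Esam(hi) array is the low one for each of these genes, while the Esam(lo) arrays lie within 0.15 of each other. Mcm3, Mcm5 and Mcm6 differed by -0.75, -0.75 and -0.81 between the control arrays, where 23.4%, 30.2% and 25.5% of all genes of like level had a still lower difference. The loaders and partners of the helicase differed less. Cdt1, which brings MCM to origins, was lower by a difference of -0.45, whereas Cdc45 and Gins2, which complete the active helicase, differed by -0.08 and by 0. Cdc6, the other loader, read 6.83, 6.88 and 6.88, below background on the Esam(hi) array, and Gins1 was below background on all 3 arrays.

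All 5 genes that synthesise DNA read lower in control Esam(hi) than in control Esam(lo), none of them by the 2-fold rule. Prim1, the primase that lays RNA primers, read 6.09 on the control Esam(hi) array, below background, and 7.0 and 7.16 on the Esam(lo) arrays. These last values lie close to the background of the Esam(hi) array, so no fold between Esam(hi) and Esam(lo) is given. Rfc4, a subunit of the loader that opens the clamp, read 6.80, 7.75 and 7.89, and was at least 1.5-fold lower in control Esam(hi) than in control Esam(lo), counted against the Esam(hi) background. Rfc3, another subunit of that loader, read 6.77, 7.11 and 7.18, the first below background. Pcna, the sliding clamp, read 11.14, 11.58 and 11.49, and its second probe set gave 11.15, 11.57 and 11.48. Pcna thus differed by -0.44 between the controls, and Pola1, the catalytic subunit of polymerase alpha, by -0.12. Pseudogenes of Pcna, Tyms, Ccnb2 and Ccnd3 are annotated and may share probe signal with these genes.

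Of the 3 genes of nucleotide supply, 2 read lower on control Esam(hi) than on control Esam(lo), and Tyms was too dim to compare. Rrm2, the regulated subunit of ribonucleotide reductase, read 7.80 on control Esam(hi), 8.52 on control Esam(lo) and 8.79 on the array labelled RBPJ-null. Rrm1, its large subunit, read 8.66, 9.19 and 9.48. Tyms, which makes thymidylate, read 7.09, 7.07 and 7.34, the first value being below background. Rrm1 and Rrm2 thus rank the arrays alike, with Esam(hi) lowest and the array labelled RBPJ-null highest. Tyms as deposited was no lower on Esam(hi) than on control Esam(lo), and like them it was highest on the array labelled RBPJ-null. Its control Esam(lo) value lies under the Esam(hi) background of 7.17, so a lower level on Esam(hi) could not have been seen.

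Of the 20 mitotic genes 18 read lower in Esam(hi) than in control Esam(lo), with 1 higher and 1 tied. Top2a, which untangles DNA for chromosome separation, read 8.27, 9.32 and 9.61, a 2.07-fold difference between the controls. Its second probe set lay below background on all 3 arrays, at 4.18, 4.22 and 4.24. It differed by only -0.04 between the controls, too dim for an order to be read. Aurkb, the kinase of the chromosomal passenger complex, read 8.34, 9.39 and 9.45, a 2.06-fold difference. Bub1, a spindle checkpoint kinase, read 6.79 in Esam(hi), below background, against 7.85 and 8.35, and was at least 1.61-fold lower there than in control Esam(lo). On all of these main probe sets Esam(hi) is the low array and the labelled one the high array.

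Mki67, the marker of cycling cells, read 9.15, 10.08 and 10.32, and Kif11, the motor that pushes spindle poles apart, read 8.02, 8.98 and 9.44. The fold between the controls for Kif11 was 1.95, just short of 2. Plk1, the kinase that drives mitotic entry, read 7.38, 8.20 and 8.42, and Ccna2, the cyclin of S phase and G2, read 8.28, 9.10 and 9.35. Both follow the same order of arrays as Mki67. Ccnb2, a mitotic cyclin, and Bub1b, a checkpoint protein, differed by -0.86 and -0.83 between the controls. Foxm1, a factor that switches on mitotic genes, read 7.16, 7.91 and 7.91 and was at least 1.67-fold lower in Esam(hi), where it lay just under background.

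Not all mitotic genes differed by as much between the controls, or could be read as well. Cdc20 and Ube2c, which serve the anaphase-promoting complex, differed by 0.08 and -0.10, so the genes of mitotic exit lay near 0 on either side. Aurka, a kinase of the spindle poles, differed by -0.19 and Birc5, also called survivin, by -0.33. Cenpf, a kinetochore protein, lay between 6.75 and 6.81 on the 3 arrays, above background only on the control Esam(lo) array. Kif20a, a motor of cell division, read 6.42 below background in Esam(hi), and 6.93 and 7.0 in the others. Its difference between the controls was -0.51 as deposited, and 6.35% of genes of like level had a still lower one. All its values lie under the Esam(hi) background of 7.17, so no fold is given. Ttk, another checkpoint kinase, was tied at 6.27 below background, and no order can be read for it.

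The G1 genes were mixed. Cdk4, the kinase partner of D cyclins, read 9.46 on control Esam(hi) and 10.59 on both Esam(lo) arrays, a 2.19-fold difference. Ccnd3 read 8.86, 9.90 and 9.83, 2.05-fold lower in control Esam(hi) than in control Esam(lo). The other D cyclins did not follow it: Ccnd1 read 11.59, 11.35 and 11.35, higher on the Esam(hi) array, and Ccnd2 was tied at 9.17 on all 3. Ccnd1 lay above 88.3% of the 163 genes of like level in this difference. Cdk2 differed by -0.55 between the controls, and the activators E2f1 and E2f2 by -0.41 and -0.67. Ccne1 was at 7.68, 7.68 and 7.69, and Ccne2 was below background on all 3 arrays. Cdkn1b, the inhibitor of cyclin E and CDK2 complexes, read 10.70, 11.00 and 11.06, with its second probe set tied at 9.77.

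By the rule of at least 2-fold with the brighter array above background, 6 of 46 genes (13.0%) were lower on the control Esam(hi) array: Mcm7, Top2a, Aurkb, Bub1, Ccnd3 and Cdk4. Of all 9688 genes above background on at least 1 of the control arrays, 11.0% met the rule in that direction, so the share of the cell cycle set lay near that of all genes. None of the 46 met it as higher, against 0.774%. The rule takes the dimmer value as deposited, also below background. With values below background set to that background, Bub1 no longer met it, which left 5 genes against 9.84% of all, and again none higher, against 0.630%. The difference between the arrays also depends on level: brighter genes in general read lower on the Esam(hi) array. Each gene was therefore set beside all genes in the same bin, 0.5 wide in log2, of its mean value over both arrays.

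Against genes of like level, 38 of the 49 genes lay below the median of their bin and 11 above. The difference minus that of like-level genes had a median of -0.32 over the 19 replication genes, -0.41 over the 20 mitotic genes and -0.04 over the 10 G1 and inhibitor genes. Of the replication genes 15 lay below their like-level median, as did 17 mitotic and 6 G1 or inhibitor genes. These counts include genes below background on Esam(hi), whose differences are bounds; 36 of the 49 were above background on all 3 arrays. Among those 36, Mcm7 had a lower difference than all but 9.71% of its 1268 genes of like level, Cdk4 than all but 10.7% and Top2a than all but 13.4%. With the trend on level removed by a smooth curve, Prim1 and Bub1 passed the rule on their deposited values, against 5.03% of all genes, and none was higher, against 1.86%. Both are below background on Esam(hi), so no gene measured on both control arrays was 2-fold lower after that step.

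Replication and mitotic genes were close to each other in this comparison. Their medians among genes above background were -0.63 and -0.75, a gap of 0.13 that turned to -0.079 when a gene's probe sets were averaged. With low values set to background the medians were -0.49 and -0.69. All genes above background had a median of -0.28.

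**Figure D2:**
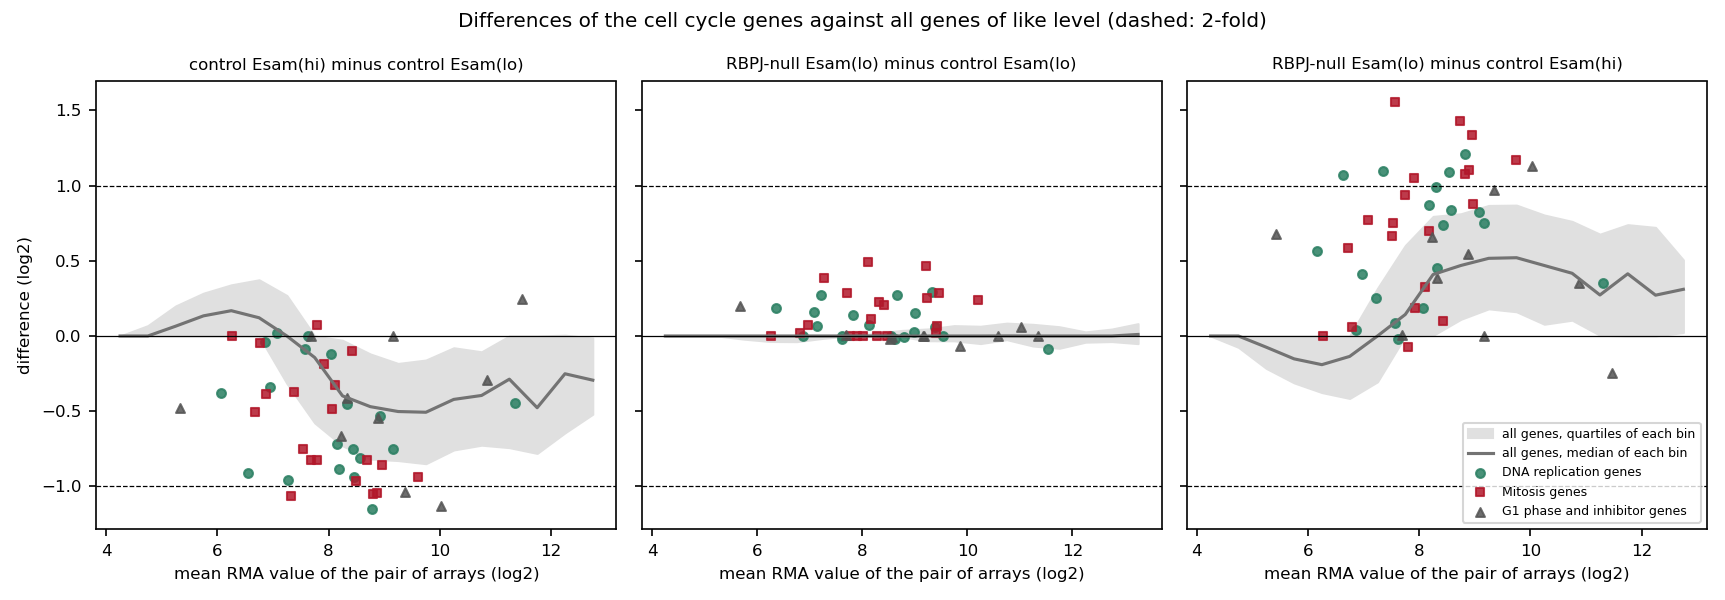
Difference in log2 (vertical) against the mean RMA value of the pair of arrays (horizontal) for the 49 genes, in 3 panels, 1 per comparison, with symbols by role. The grey line and band are the median and quartiles of all genes in bins 0.5 wide and the dashed lines mark 2-fold; in the comparison of the control arrays 38 of the 49 genes lie below the median of their bin.

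Housekeeping genes, for which a cell cycle role is not the reason for listing, moved with the set. All 9 read were lower on the control Esam(hi) array, with a median difference of -0.85 and of -0.44 against genes of like level, beside -0.41 for the mitotic genes. Hprt, of purine salvage, read 7.48 on Esam(hi) and 9.24 and 9.40 on the Esam(lo) arrays. The mean over the 9 was 10.07, 10.99 and 11.05, the Esam(lo) arrays lying close together. The part of this shift in the cell cycle result was not tested.

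Markers of other cells differed too. Of 9 monocyte and macrophage markers on the array 8 were lower on the Esam(hi) array, with a median difference of -1.96 and list means of 7.69, 9.41 and 9.39. Of 12 neutrophil and precursor markers, 10 were above background on the Esam(hi) array and all 12 on the others, with list means of 8.49, 9.02 and 9.22. They did not move as 1 block: Mpo, of early precursors, read 9.28, 8.31 and 8.74, while S100a8, of mature cells, read 8.35, 10.53 and 10.65. Of the 8 erythroblast markers read, Klf1, Alas2, Epor, Car2 and Rhag were below background on all 3 arrays, and list means were 6.54, 6.33 and 6.25. Tfrc was above background on all 3, at 7.59, 8.03 and 7.83. Ermap read 7.17, 6.78 and 6.54, above background on the control arrays only. Slc4a1 read 7.18, 6.52 and 6.37, above background on Esam(hi) only. Of 12 B and plasma cell markers 4 were above background on each array, and list means were 6.97, 6.91 and 6.80. Among these 4, Jchain read 10.70, 9.68 and 8.68, opposite in order to most of the set. Cd79b read 8.20, 9.12 and 9.29, Xbp1 9.87, 10.43 and 10.43, and Prdm1 7.99, 8.37 and 8.22, each lowest on Esam(hi). The B cell genes Ms4a1, Cd79a and Pax5 were below background on all. Of 10 T and NK cell markers 3 were above background on each array, with list means between 6.34 and 6.39. Klrd1 read 9.46, 10.60 and 10.60, Bcl11b 7.58, 7.07 and 7.07, and Cd3e 7.65, 7.64 and 7.65. Of 6 plasmacytoid DC markers 4 were above background on each array, with list means of 7.64, 7.79 and 7.94. Tcf4 read 8.34, 9.55 and 9.62, Ccr9 7.32, 7.76 and 7.99, Bst2 8.16, 8.37 and 8.20, and Cox6a2 8.60, 7.95 and 8.72. The part of any of these lists in the cell cycle result was not tested.

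The next comparison sets the Esam(lo) cells labelled RBPJ-null beside the Esam(lo) cells of control mice. None of the 46 genes above background met the 2-fold rule in either direction. Among all 9586 genes above background 0.0730% met it as higher and 0.188% as lower, or 0.0522% and 0.167% with low values set to background, so few genes of any kind did. Of the 49 genes, 28 read higher on the array labelled RBPJ-null, 7 lower and 14 tied, with a median difference (RBPJ-null minus control) of 0.03; of all genes 19.7% read higher and 28.3% lower.

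The direction within this small range is given by role, with no test of the roles against each other. Of the 19 replication genes 11 read higher, 4 lower and 4 tied, which became 12 higher and 7 lower after quantile normalization. Of the 20 mitotic genes 14 read higher, 0 lower and 6 tied, which became 14 higher and 6 lower after quantile normalization broke the ties. The 9 chromosome and spindle genes had a median of 0.24 with 8 higher, and under quantile normalization 1 of them read lower. The 3 genes of nucleotide supply all read higher, by 0.27 to 0.29 as deposited, and stayed higher under every scaling tried. The 11 genes of the helicase and its loading had a median of 0, with 4 higher, 3 lower and 4 tied, and the 9 G1 cyclin, kinase and E2F genes also had a median of 0.

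Of the 49 genes Bub1 differed most, reading 7.85 in control Esam(lo) cells and 8.35 in those labelled RBPJ-null, 1.41-fold higher. Kif11 was 1.38-fold higher, at 8.98 and 9.44. Cenpe, a kinetochore motor, read 7.07 and 7.46, a difference of 0.38. Tpx2, which builds the spindle around chromosomes, read 7.56 and 7.85. In this difference Bub1 lay above 99.3% of the 1384 genes of like level, Cenpe above 99.1%, Kif11 above 98.6% of 1129 and Tpx2 above 97.9%. The spread of such genes was narrow, so small differences rank high here. Of all genes 52.0% were tied, and the quartiles over genes with a mean of 8 to 8.5 were -0.00025 and 0.02.

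The nucleotide genes ranked nearly as high among genes of their level, with Tyms above 97.8%, Rrm2 above 97.2% and Rrm1 above 97.1%. Top2a lay above 96.7%, Ccna2 above 95.8%, Plk1 above 95.4%, and Mki67 and Cdk1, the kinase of mitotic entry, both above 94.4%. Mcm2, Mcm3, Pcna and Ccnd3 read slightly lower on the labelled array, by differences of -0.02, -0.01, -0.09 and -0.07. Medians among genes above background were 0.04 for replication and 0.11 for mitosis, against 0 for all genes. Neutrophil markers moved the same way, 10 of 12 reading higher and 0 lower with a median of 0.19, and monocyte markers had a median of 0. Of the 9 housekeeping genes 8 read higher, with a median of 0.03. The part of the neutrophil genes in these small differences was not tested.

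**Figure D3:**
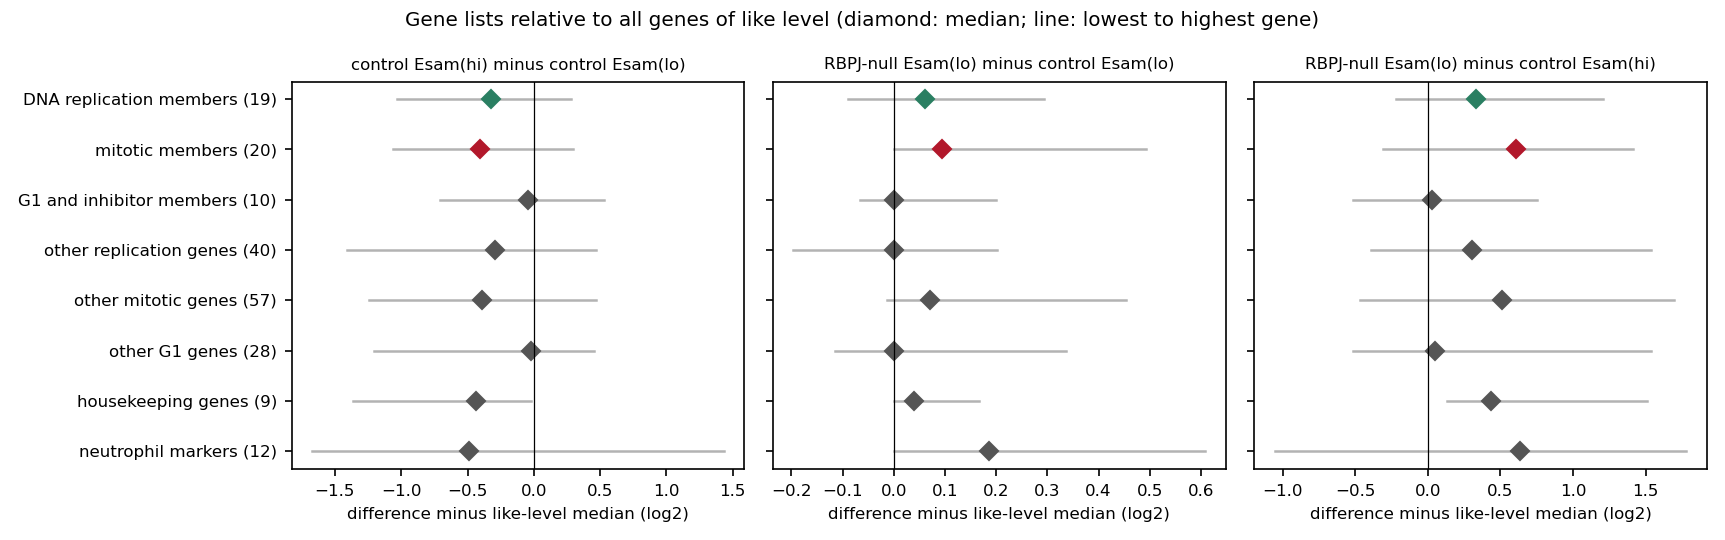
Difference minus the median of genes of like level (log2), by gene list, in 3 panels whose horizontal scales differ, 1 per comparison, with the number of genes read in brackets. Diamonds are list medians and lines run from the lowest to the highest gene; mitotic genes lie at -0.41, 0.09 and 0.61 in the order of the panels and housekeeping genes at -0.44, 0.04 and 0.43.

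The array labelled RBPJ-null was last set against control Esam(hi), a comparison that shares an array with each of the others and is no separate evidence for them. Here 44 of the 49 genes read higher on the labelled array, 3 lower and 2 tied, with a median difference of 0.68, while 36.2% of all genes read higher. That share also covers dim genes. Over all genes with a mean of 8.5 to 9 on these 2 arrays, the lower quartile of the difference was 0.11, so most of those were higher too. By the 2-fold rule 12 of 45 genes (26.7%) were higher, against 12.8% of all 9395 genes, and none was lower, against 1.17%. The 12 were Mcm4, Mcm7, Prim1, Rfc4, Ccna2, Plk1, Mki67, Top2a, Aurkb, Kif11, Bub1 and Cdk4, that is 4 replication genes, 7 mitotic genes and 1 G1 gene. Prim1, Rfc4 and Bub1 are below background on Esam(hi). With such values set to background, Prim1 and Rfc4 no longer met the rule, which left 10 genes against 11.3% of all, and none lower, against 0.926%.

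Kif11 was 2.69-fold higher on the labelled array than on control Esam(hi), Top2a 2.52-fold, Mcm7 2.31-fold, Mki67 2.25-fold and Bub1 at least 2.27-fold. Rrm2 lay just short of the rule at 1.99-fold. Ccnd1 and Cdc20 were the genes that read lower on the labelled array by more than 0.05, with differences of -0.24 and -0.08.

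Against genes of like level, the mitotic genes stood farther out in this comparison than the replication genes. The median difference minus like level was 0.61 for mitosis, 0.33 for replication and 0.03 for G1 and inhibitors, with 17 of 20, 16 of 19 and 5 of 10 genes above their like-level median. The unadjusted medians over the same genes were 0.76 for mitosis and 0.74 for replication. Over genes above background, with low values set to it, they were 0.81 and 0.59. Among genes above background on both arrays, Kif11 lay above 95.8% of genes of like level, Top2a above 94.4%, Mcm7 above 91.6% and Plk1 above 90.5%. With the level trend removed Prim1, Rfc4, Kif11 and Bub1 passed the rule on their deposited values, against 6.04% of all genes, and none was lower, against 2.37%. Of these 4, Kif11 alone is above background on both arrays. Housekeeping genes were again higher for all 9, with a median of 0.95 and of 0.43 against like level. Monocyte and macrophage markers had a median of 1.96, with 5 of 8 past the rule as higher, and neutrophil markers a median of 0.65, with 6 of 12. The part of these lists in the result was not tested.

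Other genes of the same pathways also read lower on control Esam(hi) for the most part. Of 40 other replication genes read, 31 were lower on control Esam(hi) than on control Esam(lo), 0 higher and 9 tied. Of the 35 above background 6 met the 2-fold rule as lower (17.1%, against 11.0% of all genes). The rule took values below background as deposited, and a count with them set to background is not given for this list. Gins4, of the active helicase, read 7.41, 8.57 and 8.66, 2.23-fold lower in Esam(hi) than in control Esam(lo). Usp1, a deubiquitinase that acts on PCNA, read 7.11, 8.22 and 8.24, the first below background. Tipin, of the fork protection complex, read 5.75, 6.92 and 6.91, and Pole2, of polymerase epsilon, read 5.87, 7.11 and 7.27, both below background on Esam(hi). On control Esam(lo) both also lay under that Esam(hi) background of 7.17, so no fold between the controls is given for them. All 4 had their low value on the control Esam(hi) array.

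Of 57 other mitotic genes read, 52 were lower on control Esam(hi), 0 higher and 5 tied. Of the 46 above background 8 met the rule as lower (17.4%, against the same 11.0%), again with values below background taken as deposited. Cks2, a small partner of cyclin-dependent kinases, read 7.60, 9.17 and 9.21, 2.98-fold lower than on control Esam(lo). Mad2l1, of the spindle checkpoint, read 6.84, 8.22 and 8.67, at least 2.08-fold lower. Kif15, a spindle motor, and Smc2, of condensin, read 6.89 and 6.53 on Esam(hi) against 8.15 and 7.76 on control Esam(lo). Both Esam(hi) values lie below the background of that array, so these differences are only bounds. On the array labelled RBPJ-null 35 of the 57 read higher than on control Esam(lo), 1 lower and 21 tied, which became 33 and 24 under quantile normalization. In that comparison 18 of the 40 other replication genes read higher as deposited, 6 lower and 16 tied. Of 28 other G1 genes 11 read higher, 6 lower and 11 tied, and both these lists had a median of 0.

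Of 28 other G1 genes 20 were lower on control Esam(hi) than on control Esam(lo) and 6 higher. Of the 22 above background 3 met the rule as lower (13.6%, against 11.0%). E2f8, a repressor of E2F targets, read 7.04, 8.39 and 8.72, at least 2.33-fold lower in Esam(hi), Cdc25a, the phosphatase that frees CDK2, read 8.0, 9.19 and 9.18, and Cks1b, which is also in the mitotic list, read 8.02, 9.12 and 9.45. Against like level the medians between the controls were -0.29 for other replication, -0.39 for other mitosis and -0.02 for other G1 genes. For the array labelled RBPJ-null against control Esam(hi) they were 0.30, 0.51 and 0.05.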

How the data were processed

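The deposited values are log2 expression levels per probe set, made by the authors with RMA in Affymetrix Expression Console, per the submitters' processing notes; their versions, and the arrays normalized together, were not given in the sources used here. The table holds 35556 probe sets: the platform annotation names 1 gene for 21789, more for 1621 and none for 12146. Only those with 1 gene were used. Of their Entrez numbers 21698 were found in a GRCm38.p6 gene table and 91 were not. For 999 of 19938 genes with several probe sets, the one with the highest mean was taken.

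With 1 array per group no test, p-value or error was possible, and precision is limited by the number of arrays. Differences were described by direction, by a 2-fold rule and against all genes of like level (bins of 0.5 log2); a lowess curve (fraction 0.3) gave the level trend. Where the dimmer array lay below its background, the fold is set against that background and written "at least". The members and lists were chosen with earlier results of these data known. Genes that could be named were all members, up to 4 genes per other list farthest apart in each direction among those at least 2-fold apart, and defining markers. Alternatives were no filter, a 75th percentile filter, centring, quantile normalization, trend removal, probe set means, a 1.5-fold rule and, added after seeing the data, values below background set to it. Scripts used Python 3.11.15, numpy 2.4.6, pandas 2.3.3, statsmodels 0.14.6 and matplotlib 3.10.9, and were tested on simulated data. Promoters are from RefSeq; Mcm4, Gins2, Tpx2, Kif20a, Ccna2, Foxm1, Aurkb, Ccnd2, Gins1, Ccne2 and Ccnd1 were not matched.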

Additional observations from a re-analysis of the deposited data

How the results depend on the processing

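Each of 12 results (in each comparison, the number of genes past the 2-fold rule, the medians of replication and of mitotic genes, and their gap) was recomputed under 8 alternatives, 1 of them, setting values below background to that background, chosen after seeing the data. Of 96 values 75 moved little and 21 moved. The 75 include values that could not move, since the 1.5-fold rule alters no median or gap and centring alters no gap. No direction of a replication or mitotic median turned in any comparison. Between the control arrays, 6 genes past the rule became 12 with each array centred on its median, 3 under quantile normalization, 2 with the trend on level removed and 22 at 1.5-fold, where 15.2%, 6.72%, 5.03% and 30.4% of all genes above background were lower by the same rules. With the trend removed the medians were -0.35 for replication and -0.50 for mitosis, and the gap between them was -0.079 with probe sets averaged and 0.20 with low values set to background. Among the mitotic genes averaging changes Top2a alone, through a second probe set below background. For the array labelled RBPJ-null against control Esam(lo), the 75th percentile filter gave a mitotic median of 0.23 and a gap of -0.21, and 0 genes passed the 2-fold rule under every scaling. For that array against control Esam(hi), 12 genes past the rule became 5 under quantile normalization, 4 with the trend removed and 26 at 1.5-fold, where 7.65%, 6.04% and 32.1% of all genes were higher. The replication median there was 0.48 under quantile normalization and 0.38 with the trend removed. The gap there was -0.021 without a filter, -0.25 with the 75th percentile filter and also under quantile normalization, -0.29 with the trend removed, -0.22 with low values set to background and -0.016 with probe sets averaged. Beyond the construction of each alternative, the cause was not tested.

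The median difference of all genes between the controls was -0.28 as deposited, -0.40 centred, -0.09 under quantile normalization and -0.05 with the trend removed. Genes past the rule as higher and lower numbered 75 and 1066 as deposited, 150 and 651 under quantile normalization, and 180 and 487 with the trend removed. For the array labelled RBPJ-null against control Esam(hi) they numbered 1203 and 110, 719 and 211, and 567 and 223. No paired analysis was possible because each group has 1 array, and for the same reason leaving out a replicate was not done. Genes near background (7.17, 6.76 and 6.87) have only bounds.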
